A study of Homo sapiens with 8 samples.

Results

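The heat shock chaperones of the cytosol and mitochondria, with their cochaperones and 2 heat shock factors, were followed in wild-type and bortezomib-resistant LP-1 myeloma cells. The set holds 41 genes, matched by gene symbol, and all 41 were found among the 18564 genes of the deposited table. It covers HSP70 and HSP110 proteins, HSP90 proteins, J-domain (HSP40) proteins, small heat shock proteins, BAG proteins, other cochaperones, the mitochondrial chaperones, HSF1 and HSF2. Of these, 39 passed the filter on low counts, and HSPA2 and CRYAB did not.

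LP-1 is an established human myeloma line with the t(4;14) translocation, and the bortezomib-resistant (BR) cells are its derivative, labelled as grown with the proteasome inhibitor bortezomib for 2 months. The 4 conditions were sequenced with 2 libraries each: WT with vehicle, WT with SI-2, BR with vehicle and BR with SI-2. SI-2, a small-molecule inhibitor of the coactivator SRC-3, was given at 25 nM for 24 h, and the vehicle was DMSO, although the labels of the WT vehicle libraries also carry the word untreated. The comparison of lines asks what accompanies resistance to bortezomib, and that of treatments asks what SI-2 alters. All 8 libraries came from 1 line and its 1 derivative, and the labels say neither whether BR cells were a clone nor whether bortezomib was still present at harvest. Gene counts summed to between 17997771 and 18570027 in each library, so depth was nearly equal. Whether replicates were grown as separate cultures is not stated in the labels, and the p-values measure only the spread between these libraries.

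Chaperones hold other proteins in a foldable state. J-domain proteins bring clients to HSP70 and stimulate its ATPase, and exchange factors such as HSP110 and most BAG proteins release them. HSP90 with its cochaperones completes the folding of kinases and steroid receptors. HSF1 switches on many of these genes when unfolded proteins accumulate, as happens when the proteasome is blocked, and plasma cells carry a heavy load of secretory protein.

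The libraries were checked against markers first. Of the 10 markers listed for plasma cells and t(4;14) myeloma, TNFRSF17, IRF4, XBP1, MZB1 and FGFR3 were high in all 8 libraries, with XBP1 between 366 and 596 FPKM (fragments per kilobase scaled to library size, a level per gene length). SDC1 (CD138), a defining plasma cell marker, was lower, between 5.12 and 12.1 FPKM, and SLAMF7 was between 0.33 and 0.6 FPKM. The defining B cell marker MS4A1 reached at most 0.03 FPKM, and CD3E and CD14 at most 0.11 FPKM each, while CD3D and TRAC were not analysed here.

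One library stood apart. In the second BR SI-2 library, written here as BR SI-2 2, all 3 fibroblast markers were present, with COL1A1 at 9.84, COL1A2 at 1.56 and DCN at 3.74 FPKM, and their summed level was 15.1 FPKM against 0.03 to 0.1 FPKM in the other 7 libraries. A further count, made after the values were seen, found 66 genes with at least 30 counts in this library and at most 3 in each of the others, led by TGM2, PAEP and VCAN. Together these genes held 5369 counts, or 0.03% of the library, and the other libraries had 0 or 1 such gene. Their part in the chaperone values was not tested, and the line, SI-2 and replicate comparisons are also given without this library below. Both genes under the filter were also highest there. HSPA2, an HSP70 best known from testis, had 18 counts in BR SI-2 2 and 1 to 6 in the others, and CRYAB (alpha-B crystallin) had 12 counts there and 1 to 6 elsewhere.

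Reference promoters show which of these genes carry the letters that HSF1 is known to bind. The search used the 250 bases before each annotated start in RefSeq (GRCh38.p14, a later build than the hg19 named in the submitters' processing notes) and the letters TTCNNGAA and GAANNTTC, each of which is its own reverse complement, so that both strands were covered. Matches that share 3 bases were counted separately. Promoters were found for 34 of the 41 genes, in 52 windows. At least 1 match stood in 14 windows (26.9%), 1 for each of 14 genes, against 4067 of all 35116 windows (11.6%), and 2 or more matches stood in 7 windows (13.5%) against 1.32% of all windows. These are matches of letters and not measured binding. Of the stretches around these matches, the 7 that held no annotated exon are printed, all from genes described below, with the matches in capitals:
HSPA1A: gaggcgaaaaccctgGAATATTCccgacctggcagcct
HSPA1B: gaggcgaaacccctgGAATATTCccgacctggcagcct
HSP90AB1: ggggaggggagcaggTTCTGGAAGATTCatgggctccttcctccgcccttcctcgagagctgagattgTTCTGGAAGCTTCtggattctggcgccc
HSPB1: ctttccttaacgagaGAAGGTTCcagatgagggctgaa
DNAJB6: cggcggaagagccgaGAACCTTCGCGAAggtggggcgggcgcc
DNAJA1: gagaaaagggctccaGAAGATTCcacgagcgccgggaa
DNAJB1: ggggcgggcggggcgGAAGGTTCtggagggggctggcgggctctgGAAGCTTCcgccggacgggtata
The HSPA1A stretch lies at chr6:31815422-31815459 and the HSPA1B stretch at chr6:31827618-31827655, both on the plus strand. Their matches are 106 and 105 bases before the RefSeq starts, which differ from the GENCODE starts given below. HSP90AB1 (chr6:44247763-44247858, plus strand) has 4 matches between 165 and 107 bases before its start. HSPB1 lies at chr7:76302476-76302513, DNAJB6 at chr7:157336858-157336900 and DNAJA1 at chr9:33025060-33025097, all on the plus strand. DNAJB1 is on the minus strand at chr19:14518422-14518489, with 2 matches 77 and 47 bases before its start. The other genes with a match were HSPA8, HSP90AA1, HSPD1, HSPA4L, DNAJB4, BAG2 and CHORDC1. No match was found in the windows of 20 genes, among them FKBP5, HSPE1, BAG3 and HSPBP1. The 3 HSPD1 matches, between chr2:197500068 and chr2:197500085, lie outside the HSPE1 window (chr2:197500129-197500428), on its upstream side. Their stretch overlaps an annotated HSPE1 exon.

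Levels differed by orders of magnitude between chaperones and little between libraries. Mean FPKM over the 8 libraries was above 100 for 7 genes, namely the mitochondrial chaperonin HSPD1 (566 FPKM), the constitutive HSP90 gene HSP90AB1 (485), the HSP90 cochaperone PTGES3 (369.9), HSP90AA1 (175), the mitochondrial HSP70 gene HSPA9 (163), the constitutive HSP70 gene HSPA8 (159) and BAG6 (112). A further 27 genes were between 10 and 100 FPKM, 5 between 1 and 10, and HSPA2 and CRYAB under 1. None of the 41 was among the 100 most abundant genes. Genes known to be heat-inducible were spread over this range, from HSPD1, HSP90AA1, HSPB1 (99.5 FPKM) and HSPE1 (94 FPKM) down to DNAJB1 at 16, HSPA1B at 15.7, HSPH1 at 14.5, BAG3 at 3.12 and HSPA1A at 1.23 FPKM. The chaperone genes together took 0.694% to 0.851% of the counts of a library.

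**Figure D1:**
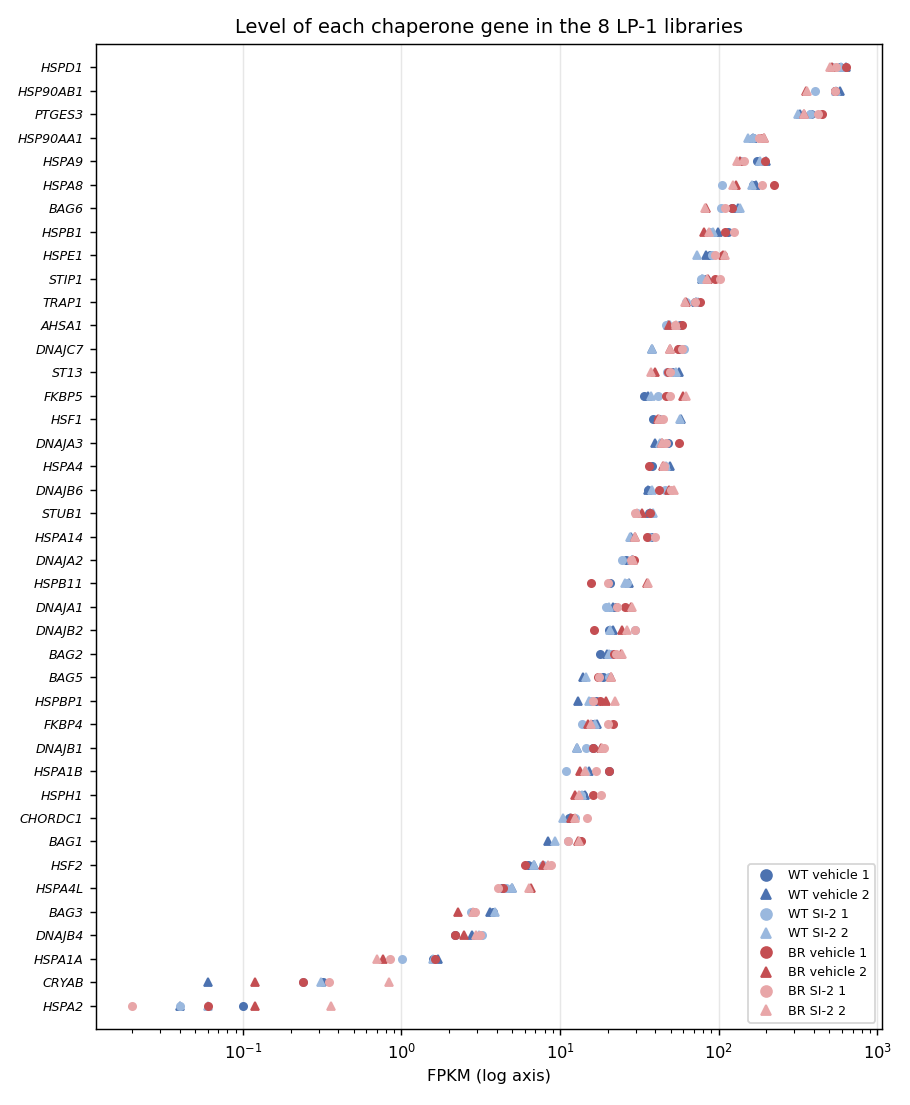
FPKM (log axis) of each of the 41 chaperone genes, ordered by mean, with 1 point per library, coloured by condition and shaped by replicate. HSPD1 and HSP90AB1 lead at 566 and 485 FPKM on average, and HSPA2 and CRYAB lie under 1 FPKM with their highest point in BR SI-2 2.

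Between libraries, the highest value exceeded the lowest by 1.48-fold in the median chaperone gene and by 1.58-fold in the median of all genes tested, on the scale of CPM (counts divided by the TMM-adjusted library size, not corrected for gene length and so used below only within 1 gene). The ratio was under 1.5 for 20 of the 39 genes and above 2 for 3 of them. The CPM values that follow are given in the order replicate 1, replicate 2.

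In the HSP70 group no member passed the test between lines. HSPA8 had 383 and 393 CPM in WT vehicle, 237 and 373 in WT SI-2, then 522 and 283 in BR vehicle, and 433 and 264 in BR SI-2. HSPA1B, a stress-inducible HSP70, had 52.4 and 38.7, then 27.5 and 37.2, then 52.8 and 32.8, then 43 and 34.2 CPM in the same order of conditions. The replicates of one condition thus lay as far apart as the conditions, and the lines overlapped for both genes. HSPA1A, its near-identical neighbour, was low throughout, with 3.92 and 4.15 CPM in WT vehicle, 2.47 and 3.89 in WT SI-2, then 4.07 and 1.8 in BR vehicle, and 2.08 and 1.61 in BR SI-2. The BR over WT log2 fold change was -0.60 (standard error 0.30, edgeR adjusted p = 0.392), and the first BR vehicle library lay within the WT range.

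How reads were divided between the 2 inducible genes is uncertain. In the GRCh38 annotation (GENCODE 29) HSPA1A lies at chr6:31815464-31817946 and HSPA1B at chr6:31827735-31830255, both on the plus strand. Their coding sequences of 1923 bases (stop codon left out) differ at 4 positions and are 99.8% identical, and 69.9% of all 100-base stretches of the HSPA1A transcript also occur in HSPA1B. The authors' estimated counts, which can be fractions, divide such reads between genes. The counts of both genes together were 990 and 775 in WT vehicle, 546 and 740 in WT SI-2, then 1007 and 652 in BR vehicle, and 823 and 689 in BR SI-2. This sum was lowest in the first WT SI-2 library, and the lines overlapped.

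The exchange factors of the HSP110 family had no member past the test between lines. HSPH1, the inducible member, had 48.7 and 49.8 CPM in WT vehicle, 47 and 47.3 in WT SI-2, then 56.2 and 41.1 in BR vehicle, and 63.1 and 43.9 in BR SI-2. The WT libraries lay inside the spread of the BR libraries. HSPA4 ranged from 127 to 169 CPM and HSPA4L from 16.1 to 24.6 CPM. HSPA14, an HSP70-like protein of the ribosome-associated complex, ranged from 77.3 to 108 CPM.

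Of the 2 cytosolic HSP90 genes, HSP90AA1 separated the lines and HSP90AB1 overlapped. HSP90AA1, the more inducible isoform, had 572 and 566 CPM in WT vehicle, 552 and 525 in WT SI-2, then 641 and 635 in BR vehicle, and 617 and 621 in BR SI-2. All 4 BR libraries lay above all 4 WT libraries, with a mean of 628 ± 11.1 CPM in BR and 554 ± 20.8 CPM in WT (SD, n = 4). The log2 fold change was 0.18 (standard error 0.07), and the edgeR test did not pass over all genes (adjusted p = 0.307, unadjusted p = 0.0328). HSP90AB1, the constitutive isoform, had 1454 and 1545 CPM in WT vehicle, 1069.6 and 1467 in WT SI-2, then 1466 and 913 in BR vehicle, and 1451 and 894 in BR SI-2. Its lines overlapped, and BR vehicle 2, BR SI-2 2 and WT SI-2 1 held the 3 lowest values. Reads of HSP90 genes can also fall on their processed pseudogenes, which were not analysed here. Almost all HSP90AA1 counts fell on 1 of its 2 listed transcripts (median 99.5%), whereas the leading of 5 HSP90AB1 transcripts held 49.3%, a division that rests on the estimate.

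Among J-domain proteins, leaving out the mitochondrial DNAJA3 described below, 3 of 7 were higher in BR at an unadjusted p under 0.05, beside 6.29% of all genes tested, and 0 passed the adjustment. DNAJA1, a general HSP70 partner, had 55.3 and 52.6 CPM in WT vehicle, 46.7 and 49.7 in WT SI-2, then 63.5 and 64.7 in BR vehicle, and 55.8 and 64.1 in BR SI-2. Every BR library was above every WT library, although BR SI-2 1 exceeded WT vehicle 1 only narrowly. Its log2 fold change was 0.28 (standard error 0.09, edgeR adjusted p = 0.233). DNAJB1, the main inducible HSP40, had 39.2 and 30.8 CPM in WT vehicle, 34 and 30.9 in WT SI-2, then 38.9 and 41 in BR vehicle, and 45 and 40.8 in BR SI-2. WT vehicle 1 overlapped with BR and the other 3 WT libraries lay below it. The line difference was 0.30 on the log2 scale (standard error 0.11, edgeR adjusted p = 0.249).

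DNAJB6, which keeps aggregation-prone proteins soluble, had 75.9 and 72.5 CPM in WT vehicle, 97.3 and 78.8 in WT SI-2, then 90.9 and 99.3 in BR vehicle, and 111 and 105 in BR SI-2. Within each treatment the BR libraries lay above the WT libraries, and WT SI-2 1 overlapped with BR vehicle. The log2 fold change was 0.32 (standard error 0.11, edgeR adjusted p = 0.246), and 67.3% of its counts fell on the leading transcript (range of libraries 57.4% to 76.8%). DNAJB2 had 48.2 and 53.3 CPM in WT vehicle, 65.9 and 50.7 in WT SI-2, then 39.6 and 53.8 in BR vehicle, and 66.9 and 55.8 in BR SI-2. DNAJB4 was scarce, with 6.71 and 8.19 CPM in WT vehicle, 9.62 and 9.45 in WT SI-2, then 6.78 and 7.01 in BR vehicle, and 9.54 and 8.48 in BR SI-2. Both genes overlapped between lines and are taken up with SI-2 below. DNAJA2 ranged from 74.9 to 91.8 CPM, the narrowest spread of the J-domain group by ratio.

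Small heat shock proteins bind unfolded clients without ATP. HSPB1 (HSP27) had 103 and 87.6 CPM in WT vehicle, 77 and 82.3 in WT SI-2, then 99.1 and 68.8 in BR vehicle, and 112 and 72.6 in BR SI-2. The WT libraries lay inside the BR range, and replicate 1 exceeded replicate 2 in 3 of 4 conditions. HSPB11, which is named with this family but is known as a part of the intraflagellar transport machinery, had 14 and 17.3 CPM in WT vehicle, 17.2 and 16.7 in WT SI-2, then 10.3 and 22.6 in BR vehicle, and 13.8 and 22.1 in BR SI-2. Its widest gap was between the 2 BR vehicle libraries.

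Of the mitochondrial chaperones, HSPE1 did not overlap between lines. HSPE1, the chaperonin lid that is encoded head to head with HSPD1, had 84.3 and 78.6 CPM in WT vehicle, 84.2 and 69.1 in WT SI-2, then 102 and 95.8 in BR vehicle, and 89.5 and 96.2 in BR SI-2. All BR libraries exceeded all WT libraries, with means of 96 ± 5.24 and 79.1 ± 7.15 CPM (SD, n = 4). The log2 fold change was 0.28 (standard error 0.10, edgeR adjusted p = 0.237). A read-through gene, HSPE1-MOB4, shares HSPE1 exons and held between 9.96 and 98.4 estimated counts against 1243 to 1850 for HSPE1. With both summed, WT libraries reached 69.9 to 85.8 CPM and BR libraries 94.9 to 103 CPM, so the lines still did not overlap.

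HSPD1 itself had 1382 and 1492 CPM in WT vehicle, 1206 and 1386 in WT SI-2, then 1512 and 1163 in BR vehicle, and 1295 and 1108 in BR SI-2. HSPA9 (mortalin) had 635 and 707, then 486 and 651, then 715 and 466, then 517 and 437 CPM. Both genes overlapped between lines and were lowest in WT SI-2 1, BR vehicle 2 and BR SI-2 2. TRAP1, the mitochondrial HSP90, followed with 165 and 165 CPM in WT vehicle, 139.9 and 169.7 in WT SI-2, then 179 and 135 in BR vehicle, and 165 and 132 in BR SI-2. DNAJA3, the mitochondrial J-domain partner of HSPA9, had 133 and 108, then 116 and 117, then 157 and 116, then 128 and 112 CPM. No member of the mitochondrial group other than HSPE1 had an unadjusted p under 0.05 between lines.

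Most BAG proteins bind HSP70 and release its client, and the BAG group had fold changes in both directions. BAG2, an inhibitor of the ubiquitin ligase CHIP, had 37.5 and 40.2 CPM in WT vehicle, 42.1 and 42 in WT SI-2, then 45.5 and 46.5 in BR vehicle, and 46.8 and 47.1 in BR SI-2. The lines did not overlap, with means of 46.5 ± 0.71 CPM in BR and 40.4 ± 2.16 in WT (SD, n = 4), and the log2 fold change was 0.20 (standard error 0.08, edgeR adjusted p = 0.319). BAG3, the stress-inducible member that directs clients to autophagy, had 10.0 and 9.41 CPM in WT vehicle, 7.04 and 10.2 in WT SI-2, then 7.63 and 5.68 in BR vehicle, and 7.62 and 6.92 in BR SI-2. BR over WT gave a log2 fold change of -0.40 (standard error 0.16, edgeR adjusted p = 0.302), and WT SI-2 1 lay within the BR range. All BAG3 counts of WT SI-2 1 (128) were assigned to a transcript that received 30 counts in BR SI-2 2 and 0 in the other 6 libraries. BAG6, which shields exposed hydrophobic segments of new proteins, ranged from 290.2 to 518 CPM, BAG1 from 33 to 54.2 CPM and BAG5 from 69.5 to 99.8 CPM.

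Of the cochaperones, FKBP5 had the smallest p between lines. FKBP5 (FKBP51), an HSP90-bound immunophilin that restrains the glucocorticoid receptor and is itself a glucocorticoid-induced gene, had 136 and 142 CPM in WT vehicle, 161 and 148 in WT SI-2, then 185 and 223 in BR vehicle, and 194 and 229 in BR SI-2. All 4 BR libraries exceeded all 4 WT libraries, with means of 208 ± 21.5 and 147 ± 10.5 CPM (SD, n = 4). The log2 fold change was 0.50 (standard error 0.10), a 1.42-fold difference of the means. The edgeR quasi-likelihood test gave an unadjusted p of 0.000447 and an adjusted p of 0.069, the smallest of any chaperone gene and short of the 0.05 threshold. Across alternative settings the adjusted p ran from 0.000575 to 0.276, and it passed with DESeq2 (0.000575), with the replicate block (0.0391, but 0.137 with condition terms as well), without WT SI-2 1 (0.0497) and without BR vehicle 1 (0.0490). Without BR SI-2 2 the log2 fold change was 0.45 with an adjusted p of 0.201. The leading of its 4 transcripts held 94.4% of the counts.

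FKBP4 (FKBP52), the related immunophilin that favours receptor activity, had 57 and 60.8 CPM in WT vehicle, 47.7 and 59.2 in WT SI-2, then 77.4 and 50.9 in BR vehicle, and 72.6 and 51.6 in BR SI-2, and its lines overlapped. STIP1 (HOP), the bridge between HSP70 and HSP90, had 187 and 177, then 171 and 179, then 215 and 183, then 228 and 176 CPM. PTGES3 (p23), which closes the HSP90 cycle, had 793 and 667, then 757 and 651, then 935 and 679, then 877 and 663 CPM. For both genes the highest values came from replicate 1 of the BR conditions, and the second BR libraries lay inside the WT range. AHSA1, the activator of the HSP90 ATPase, ranged from 63.4 to 83.5 CPM and CHORDC1 from 33.6 to 47.7 CPM.

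The next cochaperones act on HSP70. HSPBP1, an exchange factor, had 28.5 and 21.7 CPM in WT vehicle, 25.8 and 25.6 in WT SI-2, then 30.4 and 31.4 in BR vehicle, and 27.3 and 34.7 in BR SI-2, with a log2 fold change of 0.28 (standard error 0.12, edgeR adjusted p = 0.304). Only BR SI-2 1 fell within the WT range. ST13 (HIP), which stabilises the client-bound state of HSP70, had 188 and 206 CPM in WT vehicle, 170.2 and 198 in WT SI-2, then 177 and 139.6 in BR vehicle, and 179.9 and 127 in BR SI-2. It was lower in BR by a log2 fold change of -0.29 (standard error 0.13, edgeR adjusted p = 0.337), and the lines overlapped. STUB1 (CHIP), the ubiquitin ligase that removes chaperone clients, had 59.4 and 60.2, then 48.9 and 62, then 61.1 and 50.7, then 48.5 and 46.4 CPM, and its lines overlapped.

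The transcription factors showed no difference between lines that passed the test. HSF1, the main activator of the heat shock response, had 86.1 and 124 CPM in WT vehicle, 91.7 and 124 in WT SI-2, then 89.6 and 85.2 in BR vehicle, and 94.3 and 85.9 in BR SI-2. The 2 second WT libraries stood alone at 124 CPM, and the first WT libraries lay within the BR range. HSF2, which forms mixed trimers with HSF1, had 17.2 and 18.6, then 20.6 and 18.9, then 16.2 and 20.3, then 23.8 and 20.8 CPM.

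**Figure D2:**
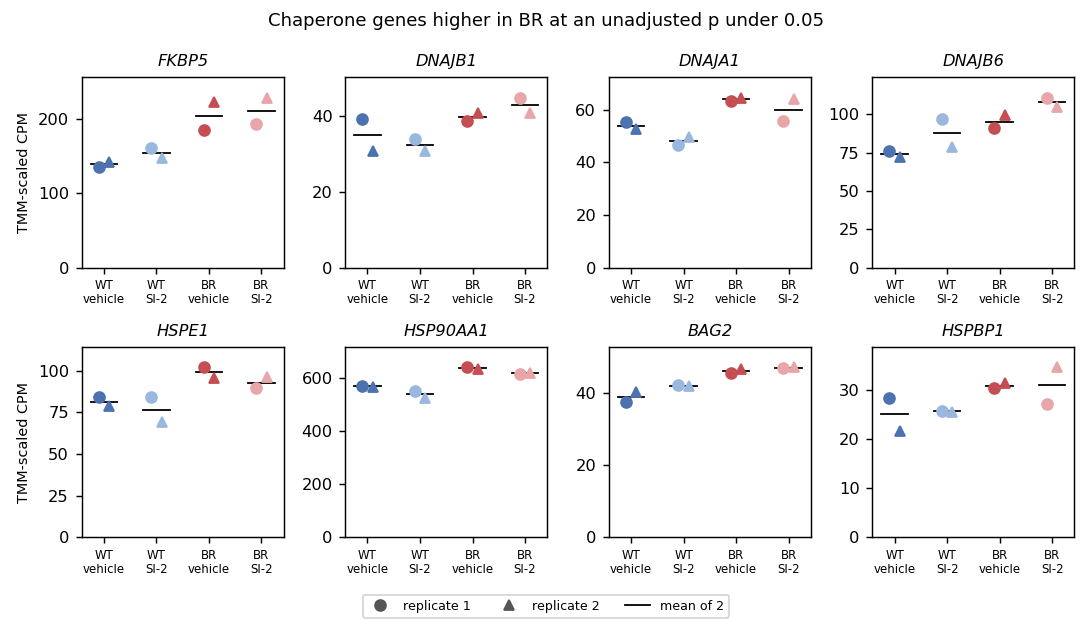
TMM-scaled CPM (axis from 0) of the 8 chaperone genes that were higher in BR at an unadjusted p under 0.05, by condition, with circles for replicate 1, triangles for replicate 2 and a line at the mean of 2. FKBP5, DNAJA1, HSPE1, HSP90AA1 and BAG2 do not overlap between WT and BR, and DNAJB1, DNAJB6 and HSPBP1 do.

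Counted over the whole set, BR against WT with 4 libraries a side called 0 of 39 chaperone genes at an adjusted p under 0.05 (edgeR), where 49 of 13520 genes were called (0.362%). DESeq2 called 1 chaperone gene, FKBP5, among 399 of the 13248 genes it gave an adjusted p (3.01%). At an unadjusted p under 0.05 there were 10 chaperone genes, beside 14.4% of all genes tested, and they were 8 higher in BR (FKBP5, DNAJB6, DNAJB1, DNAJA1, HSPE1, HSPBP1, BAG2 and HSP90AA1) and 2 lower (BAG3 and ST13), beside 6.29% and 8.08% of all genes. Groups did not overlap for 5 genes higher in BR and for 0 lower, beside 3.78% and 4.36% of all genes. The median log2 fold change was 0.08 over the 39 genes, between 0.042 and 0.12 when any 1 library was left out, and 0.00 over all genes tested.

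The count of chaperone genes with an unadjusted p under 0.05 moved with the library left out, from 4 without WT SI-2 2 (9.1% of all genes) to 13 without BR vehicle 1 (18.4%). Without BR SI-2 2 it was 5, beside 10.1% of all genes, and 0 chaperone genes were called, beside 0.235%. The 5 were FKBP5, DNAJB6 (log2 fold change 0.31), DNAJB1 (0.30), HSPE1 (0.28) and DNAJA1 (0.26). The other 5 kept their direction without that library but not an unadjusted p under 0.05, at 0.22 for HSPBP1, 0.19 for BAG2, 0.19 for HSP90AA1, -0.20 for ST13 and -0.40 for BAG3.

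**Figure D3:**
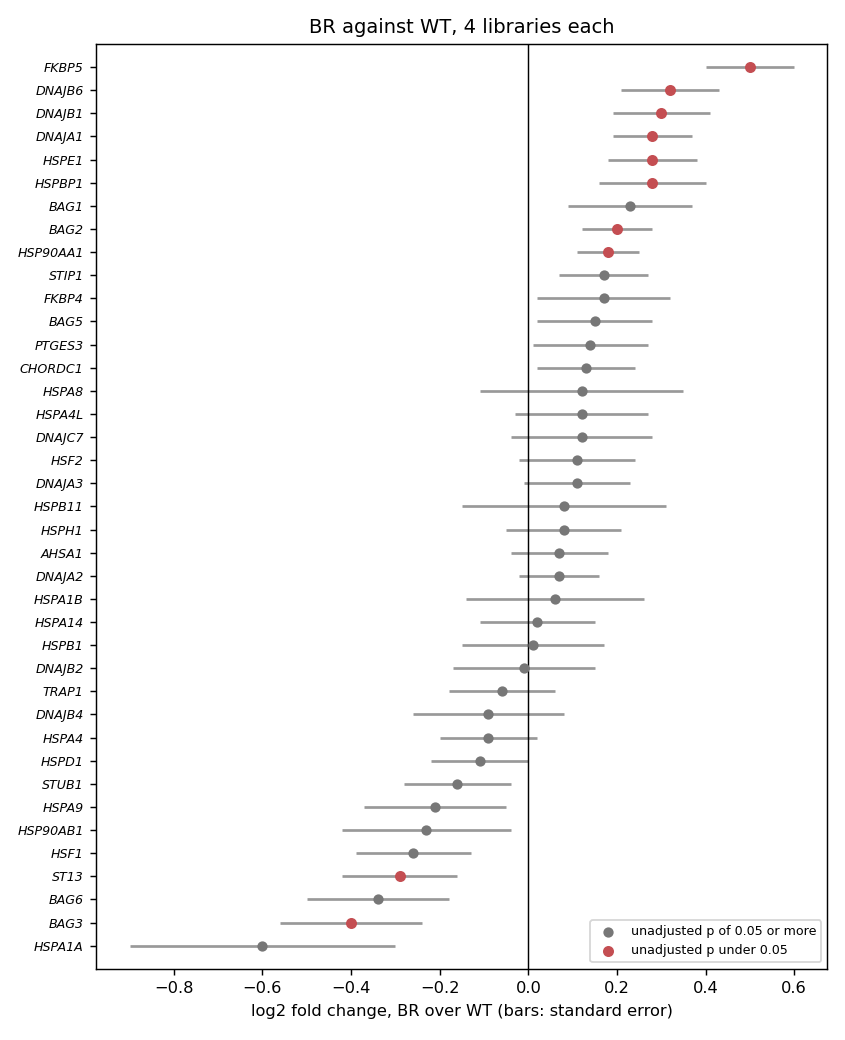
Log2 fold change of BR over WT (x axis, bars are standard errors) for the 39 tested chaperone genes, 4 libraries a side, with red points for an unadjusted p under 0.05. FKBP5 lies at 0.50, and the 2 red points below 0 are BAG3 at -0.40 and ST13 at -0.29.

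The lines were also compared under each treatment alone, with 2 libraries a side, which are the same libraries and so give no separate support to the genes just named. Under vehicle, 0 of 13896 genes and 0 chaperone genes were called (0%), although 540 genes had an unadjusted p under 0.05 (3.89%) and DESeq2 called 28 genes. FKBP5 was the only chaperone gene with an unadjusted p under 0.05, with a log2 fold change of 0.56 (standard error 0.16, edgeR adjusted p = 0.967). Groups did not overlap for 7 chaperone genes higher in BR and for 2 lower, beside 15.6% and 17.6% of all genes, the 2 lower being BAG3 and ST13. Under SI-2, 0 chaperone genes were called beside 1 gene of 13896 (0.0072%), and 34 genes were called by DESeq2. FKBP5 (log2 fold change 0.46, standard error 0.16) and DNAJB1 (0.40, standard error 0.17) had an unadjusted p under 0.05, beside 4.09% of all genes, and both had an edgeR adjusted p of 0.998. Without BR SI-2 2 these values were 0.33 and 0.47, and neither had an unadjusted p under 0.05, but BR SI-2 is then 1 library that is assumed to vary like the other conditions, so the lost p is not a smaller difference for DNAJB1. Without BR SI-2 1, with the same limit, more genes were called (the number is given below), and none was a chaperone gene. Such calls were few among all genes tested, so the lack of chaperone genes says little about the set. Groups did not overlap for 11 chaperone genes higher in BR and for 2 lower, beside 13.3% and 15.2% of all genes.

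SI-2 itself moved no chaperone gene past the threshold. In BR cells 0 of 13896 genes were called and 0 chaperone genes (0%), an unadjusted p under 0.05 was met by 1.2% of all genes and 0 chaperone genes, and DESeq2 called 1 gene. With BR SI-2 2 left out, 0 genes were called (0%), and the unadjusted p was under 0.05 for 3.5% of all genes and for 0 chaperone genes. With BR SI-2 1 left out instead, more genes were called (the number is given below), and none was a chaperone gene. These calls too were few among all genes tested. Without BR vehicle 2, the counts at an unadjusted p under 0.05 rose for chaperone genes and for all genes alike. Whether the rise was larger among chaperone genes was not tested. In each of these fits 1 condition is a single library whose spread is taken from the other conditions. In WT cells the same counts were 0 called (0%), an unadjusted p under 0.05 was met by 0.533% of all genes and 0 chaperone genes, and DESeq2 called 1 gene. Groups did not overlap for 5 chaperone genes higher and 3 lower in BR (10.7% and 11.2% of all genes), and for 5 higher and 7 lower in WT (10.9% and 12.3%). The difference of the 2 effects was tested as an interaction, which called 0 genes (0%) and gave 0 chaperone genes at an unadjusted p under 0.05, beside 0.533% of all genes. DESeq2 called 1 gene for it.

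With both lines pooled, 4 SI-2 libraries against 4 vehicle libraries, 0 of 13520 genes were called (0%), 0 of them chaperone genes, and 300 genes (2.22%) had an unadjusted p under 0.05. DNAJB4 was the only chaperone gene whose groups did not overlap, with means of 9.27 ± 0.534 CPM with SI-2 and 7.17 ± 0.691 CPM with vehicle (SD, n = 4), beside 0.666% of all genes higher and 0.777% lower in this way. Its log2 fold change was 0.37 (standard error 0.13, edgeR unadjusted p = 0.017, adjusted p = 0.999). DNAJB2, a J-domain protein that hands clients to the proteasome, followed with a log2 fold change of 0.30 (standard error 0.13, edgeR adjusted p = 0.999), and its groups overlapped. Without BR SI-2 2 the values were 0.41 and 0.33.

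Some chaperone genes varied together between libraries in a way that followed neither line nor treatment. WT SI-2 1, BR vehicle 2 and BR SI-2 2 held the 3 lowest values for 12 of the 39 genes, beside 8.56% of all genes tested. The 12 were HSPA8, HSPA1B, HSP90AB1, HSPA9, HSPD1, TRAP1, HSPB1, HSPH1, BAG3, BAG6, ST13 and FKBP4, so that they span the cytosolic and mitochondrial systems. Genes outside the set had the same lowest libraries, among them 13 of the 82 tested genes of the neighbouring lists described below. Of the 10 plasma cell and t(4;14) myeloma markers, 1 did so, XBP1. RUVBL1, part of the R2TP cochaperone complex of HSP90 and named here after its values were seen, had 50.6, 50.3 and 49.7 CPM in these libraries and 55.6 CPM or more in the others. These libraries held the 3 highest values for 1 gene, BAG5, beside 6.4% of all genes. The count was 11 with counts that had not been scaled. They were singled out after their values were seen, come from 3 different conditions and have no batch in the labels, so no test is given. They also had the 3 highest TMM factors (1.006, 1.033 and 1.058, against 0.971 to 0.989 in the others), and the part of these factors in the pattern was not tested.

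**Figure D4:**
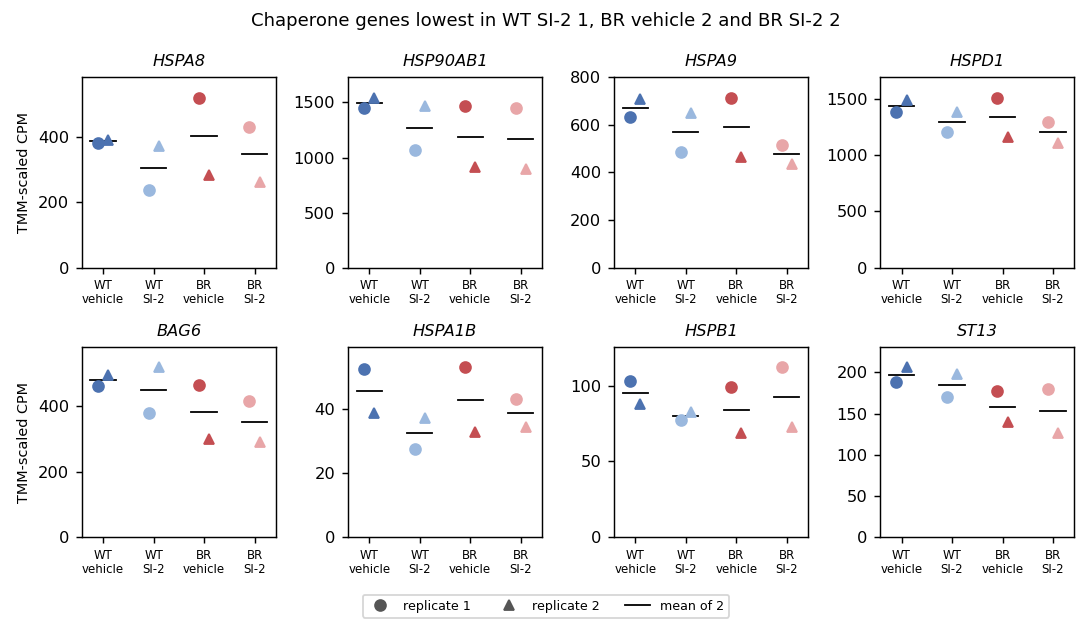
TMM-scaled CPM (axis from 0) of 8 of the 12 chaperone genes that were lowest in WT SI-2 1, BR vehicle 2 and BR SI-2 2, by condition, with circles for replicate 1, triangles for replicate 2 and a line at the mean of 2. HSP90AB1 is at 1069.6, 913 and 894 CPM in these libraries and between 1451 and 1545 CPM in the other 5.

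**Figure D5:**
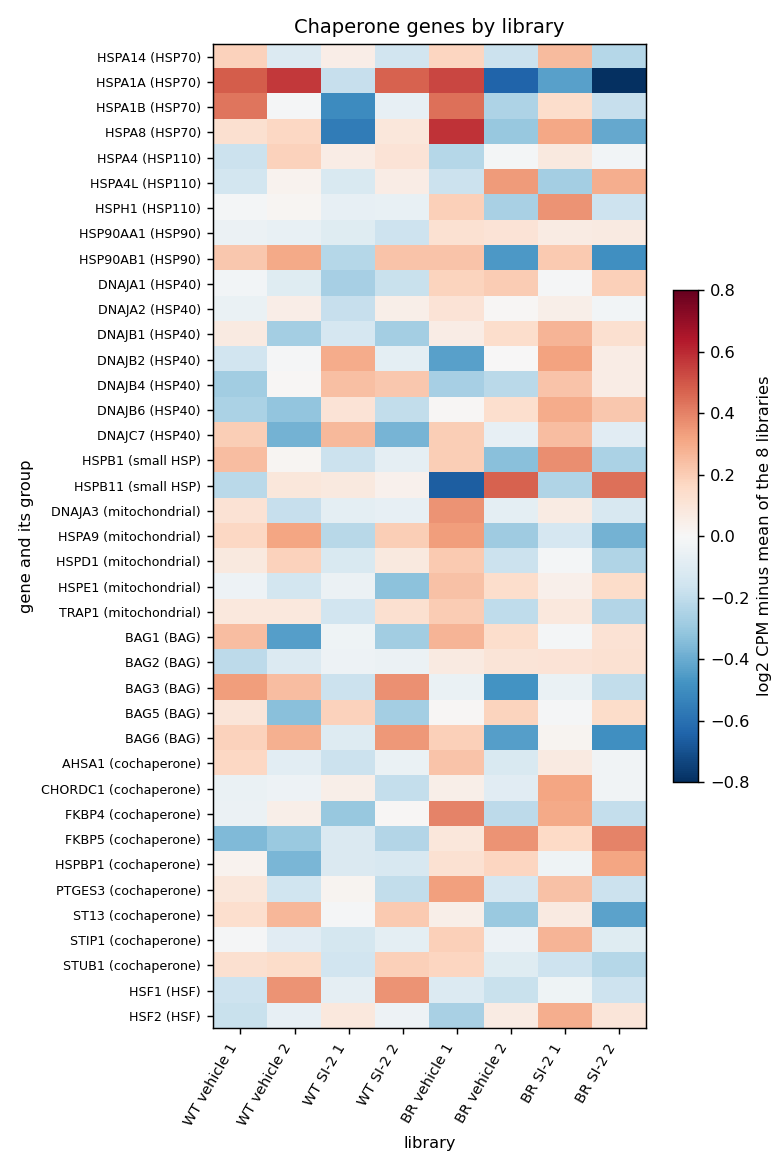
Log2 CPM of each tested chaperone gene minus its mean over the 8 libraries (colour, from -0.80 in blue to 0.58 in red, on a scale that ends at 0.8), with genes in rows grouped by role and libraries in columns. HSPA8, HSP90AB1, HSPA9 and BAG6 are blue together in WT SI-2 1, BR vehicle 2 and BR SI-2 2, and FKBP5 is red in the BR columns.

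The replicate number was compared in the same way, since the labels do not say what it marks. Replicate 2 against replicate 1, 4 libraries each, called 125 of 13520 genes (0.925%, edgeR) and 0 chaperone genes, and 7 chaperone genes had an unadjusted p under 0.05, beside 16.9% of all genes. DNAJC7, a J-domain protein with tetratricopeptide repeats that binds both HSP70 and HSP90, had 106, 111, 106 and 110.0 CPM in replicate 1 of the 4 conditions and 71.3, 71.4, 88.6 and 87 CPM in replicate 2, without overlap. Its log2 fold change was -0.44 (standard error 0.10, edgeR adjusted p = 0.0632). HSPA14 had 103, 94.1, 102 and 108 CPM in replicate 1 and 84, 81.7, 80.6 and 77.3 CPM in replicate 2, a log2 fold change of -0.33 (standard error 0.08, edgeR adjusted p = 0.081). HSPA4L went the other way, with 17.5, 17.8, 17.2 and 16.1 CPM in replicate 1 and 19.8, 20.2, 24.6 and 23.7 CPM in replicate 2, a log2 fold change of 0.37 (standard error 0.11, edgeR adjusted p = 0.118). These genes and PTGES3 (log2 fold change -0.33) were called by DESeq2, which called 740 of the 12464 genes it gave an adjusted p (5.94%). Without BR SI-2 2 edgeR called 0 genes (0%), and 5 chaperone genes had an unadjusted p under 0.05, beside 15% of all genes, with DNAJC7 at -0.49, HSPA14 at -0.31 and HSPA4L at 0.33. Groups did not overlap for 1 chaperone gene higher and 3 lower in replicate 2, beside 5.91% and 6.08% of all genes.

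Neighbouring chaperone systems were described from lists of other genes, with BR against WT and 4 libraries a side. None of the genes in these lists was called by edgeR, and their counts at an unadjusted p under 0.05 stand beside 6.29% of all genes higher and 8.08% lower. Of 31 further HSP70, J-domain, small heat shock and BAG genes, 23 were tested, with a median log2 fold change of 0.06, 0 higher and 3 lower at an unadjusted p under 0.05. The lowest was HSPA6, a strictly inducible HSP70, with 4.32 and 5.09 CPM in WT vehicle, 2.2 and 4.06 in WT SI-2, then 2.54 and 2.49 in BR vehicle, and 1.75 and 1.87 in BR SI-2. WT SI-2 1 lay within the BR range, and the log2 fold change was -0.85 (standard error 0.26, edgeR adjusted p = 0.204). The other 2 were DNAJC18 (-0.52) and HSPA12A (-0.37), and the highest value in the list was DNAJB13 at 0.34.

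The cytosolic chaperonin TRiC and prefoldin, which fold actin and tubulin, had 15 genes tested, a median log2 fold change of 0.04 and an unadjusted p under 0.05 for 0 of them, with VBP1 highest at 0.39 and PFDN6 lowest at -0.35. Of 22 other HSP90 and tetratricopeptide cochaperones, 1 was higher (NUDC, log2 fold change 0.40) and 1 lower (TOMM34, -0.29) at an unadjusted p under 0.05, around a median of 0.03, and the same shares of all genes apply. The 15 further genes of mitochondrial protein quality control had a median of 0.01, with 0 higher and 1 lower, the iron-sulfur cochaperone HSCB at -0.34, and DNAJC15 highest at 0.20. Of 7 other heat-inducible genes, 0 were higher and 1 lower, the collagen chaperone SERPINH1 at -0.41, around a median of 0.10, and CACYBP was highest at 0.31. For all genes tested the median was 0.00.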

How the data were processed

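LP-1 RNA was sequenced on the BGISEQ-500. The authors deposited estimated counts per gene, with reads that fit several genes divided among them, and FPKM values, which they scaled by gene length and library size. The submitters' notes name BWA, Bowtie2, RSEM and hg19, without versions or roles. Tables of the authors' own comparisons (fold changes and p-values) and 8 columns of condition averages were not used.

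The 41 genes and the other lists were chosen with earlier results of these data known. Counts were rounded, filtered with filterByExpr, scaled by TMM and tested in edgeR 4.0.16 (R 4.3.3, quasi-likelihood), with Benjamini-Hochberg adjustment over all genes and a threshold of 0.05. Lines, treatments and replicate numbers were fitted as 4 libraries against 4 (13520 genes), and single contrasts in 1 fit of the 4 conditions (13896 genes, common dispersion 0.0321). Alternatives were other scalings and filters, DESeq2 1.42.0, limma-trend (limma 3.58.1) on log2 FPKM with 1 or 0.1 added, the newer edgeR fit, HSPA1A and HSPA1B summed, a replicate block, condition terms, only the libraries compared, and leaving out each library. Every chaperone gene is accounted for. Values in each library are given for the stress-inducible and most used chaperones, the heat shock factors, FKBP4, FKBP5, STIP1, STUB1 and any member with an unadjusted p under 0.05, and of each other list the highest and lowest fold change of BR over WT and the genes with such a p in that comparison are named. Steps were tested on simulated data.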

Additional observations from a re-analysis of the deposited data

Results flagged for a closer look

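Within the 4 WT and the 4 BR libraries, 78 groups of 4 CPM values (39 genes, 2 lines) were checked for 1 value far from the rest, by the gap to its neighbour as a share of the range (Dixon's test at its 95% critical value), a rule that chance meets in about 1 of 20 groups. It picked 4. HSPA1A in WT SI-2 1 was at 2.47 CPM, and the other WT libraries were at 3.89, 3.92 and 4.15. HSPA8 in the same library was at 237 CPM, against 373, 383 and 393. TRAP1 was there at 139.9 CPM, against 165, 165 and 169.7. DNAJA1 in BR SI-2 1 was at 55.8 CPM, against 63.5, 64.1 and 64.7 in the other BR libraries.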

How the results depend on the processing

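The 22 single-gene fold changes followed here were those with an unadjusted p under 0.05 in the main fits, where none was called. For them 443 alternative values were computed, from all or most of the same libraries, so a kept direction is no separate support. None changed direction, 435 stayed uncalled and 8 moved past the threshold. Of these, 4 were FKBP5 in BR against WT (DESeq2, replicate block, without WT SI-2 1, without BR vehicle 1) and 4 were DNAJC7, HSPA14, HSPA4L and PTGES3 between replicates with DESeq2. The number of chaperone genes called in BR against WT was 1 with DESeq2, 1 with the replicate block and 0 to 1 when libraries were left out, and between replicates it was 4 with DESeq2.

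The number of all genes called moved more. BR against WT with 8 libraries (49) gave 399 with DESeq2, 155 with the replicate block, 18 with condition terms, 36 with condition terms and the block (added after seeing the data) and 21 to 125 without 1 library (125 without WT SI-2 1). Under vehicle (0) it was 1 with upper-quartile scaling, with the CPM filter, with the replicate block and with only the libraries compared, 3 with no filter, 28 with DESeq2, and 2 and 3 with limma at a pseudocount of 1 and 0.1. Under SI-2 (1) it was 34 with DESeq2, 2 with limma at either pseudocount, 3 with only the libraries compared and 0 to 67 without 1 library (67 without BR SI-2 1). SI-2 in BR gave 1 with DESeq2 and 0 to 67 without 1 library (67 without BR SI-2 1), and SI-2 in WT and the interaction gave 1 each with DESeq2. The replicate comparison (125) gave 196 with upper-quartile scaling, 740 with DESeq2, 66 and 64 with limma, 0 with condition terms and 0 to 93 without 1 library. The cause was not tested.

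The replicate number was not a known pairing. Same-numbered libraries of 2 conditions correlated between -0.121 and 0.436 in their deviations from the condition means, so the block only shows that FKBP5 was called with it, at an adjusted p of 0.0391, and was not once the conditions were fitted with the block (adjusted p = 0.137). The replicate block changed no other chaperone call. With 2 libraries a condition, the median standard error of a chaperone log2 fold change was 0.206, against 0.128 with 4 a side.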
